A study of Mus musculus with 2 samples.

Results

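Gabra2, Gabra6, Gabrb1, Gabrb2, Gabrg1 and Gabrd, which encode subunits of the GABA-A receptor, and Gphn, which encodes the scaffold protein gephyrin, were followed in RNA of mouse Purkinje cells. These 7 genes were taken by symbol from the 43346 Ensembl genes of the deposited tables, and each symbol matched a single row. The table held 19 GABA-A receptor subunit genes in all, of which 6 are described singly here. Both samples were pools of 30 Purkinje cells cut by laser from the cerebellum of adult male mice of 14 months. The animals were B6CASTF1/J, the hybrid of C57BL/6 and CAST mice, with no treatment or engineered allele named, and both pools carry 1 donor identifier. The labels call the pools biological replicates 1 and 2 of a single group, so no condition is compared and with a shared donor identifier the spread between them (SD, n = 2) may be technical. The deposited tables gave 31503819 expected counts in pool 1 and 28709397 in pool 2. In bulk RNA such as this, fewer cells of a type and less RNA per cell cannot be told apart.

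The GABA-A receptor is a chloride channel built of subunits around a central pore, usually alpha and beta subunits with a gamma or delta subunit. Purkinje cells receive GABA from stellate and basket cells of the molecular layer, and gephyrin holds receptors at such synapses from inside the cell. The subunit that joins a receptor sets its place and its drug response. Gabra6 and Gabrd are known from cerebellar granule cells, where their receptors lie outside synapses, and Gabrg1 is known from Bergmann glia, the astrocytes that wrap Purkinje cells.

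The alpha and beta pairs differ at single codons that are known to set drug binding, so the coding sequence around each is shown as it stands in the C57BL/6 reference (GENCODE M21, GRCm38, transcript strand, 5′ to 3′). In Gabra2 and Gabra6 the capitals mark the codon of the benzodiazepine site, a histidine codon in Gabra2 and an arginine codon in Gabra6. Receptors with the arginine do not respond to diazepam. The stretches lie at chr5:71014484-71014528 on the minus strand (exon 5 of 10 of Gabra2-203) and at chr11:42317626-42317670 on the minus strand (exon 4 of 9 of Gabra6-203). They differ at 9 of 45 bases.
Gabra2: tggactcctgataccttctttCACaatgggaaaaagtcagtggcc
Gabra6: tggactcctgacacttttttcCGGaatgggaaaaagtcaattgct

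In Gabrb1 and Gabrb2 the capitals mark a codon of the pore-lining helix, serine in Gabrb1 and asparagine in Gabrb2. The asparagine is known to be needed for the full action of etomidate and loreclezole. These stretches lie at chr5:72121960-72122004 on the plus strand (exon 8 of 9 of Gabrb1-201) and at chr11:42597552-42597596 on the plus strand (exon 9 of 10 of Gabrb2-201), and they differ at 10 of 45 bases.
Gabrb1: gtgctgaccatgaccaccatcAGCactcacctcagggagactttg
Gabrb2: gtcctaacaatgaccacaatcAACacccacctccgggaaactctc

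All 7 genes had counts in both pools, and all lay below each of 10 Purkinje cell marker genes, the lowest of which was Homer3 (TPM 67.57 and 84.32). The table gives levels as TPM, a share of all transcripts after correction for length that allows genes to be compared, and a TPM of 1 or more is called detected here. Of the 7 genes, 5 were detected in both pools, Gabrg1 was detected in pool 2 only and Gabra2 in neither. Of all 19 subunit genes, 8 were detected in both pools and 5 had no count in either. The labelled cell type was checked against those 10 markers, of which all were detected in both pools, with a summed TPM of 49747 and 48503.

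Among alpha subunit genes, Gabra6 was the higher of the pair in both pools. Gabra6 (ENSMUSG00000020428.9, chromosome 11, 42306437 to 42321072) stood at a TPM of 8.99 (pool 1) and 8.96 (pool 2), from 865 and 733 counts. It was the highest of the 7 genes in each pool, with a mean of 8.98 ± 0.0212 (SD, n = 2). Gabra2 (ENSMUSG00000000560.5, chromosome 5, 70957597 to 71095849) had a TPM of 0.21 and 0.11, from 20 counts (exact Poisson 95% interval 12.2 to 30.9) and 9 counts (4.1 to 17.1), where the intervals cover counting error only. Gabra2 was the lowest of the 7 genes in both pools, and Gabra6 exceeded it 42.8-fold in pool 1 and 81.5-fold in pool 2. The summed TPM of the 6 alpha genes nevertheless lay mostly elsewhere. Gabra6 held 3.16% of it in pool 1 and 3.37% in pool 2, and Gabra2 held 0.0737% and 0.0414%. The remaining 4 alpha genes together held 96.7% ± 0.13 (SD, n = 2).

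**Figure D1:**
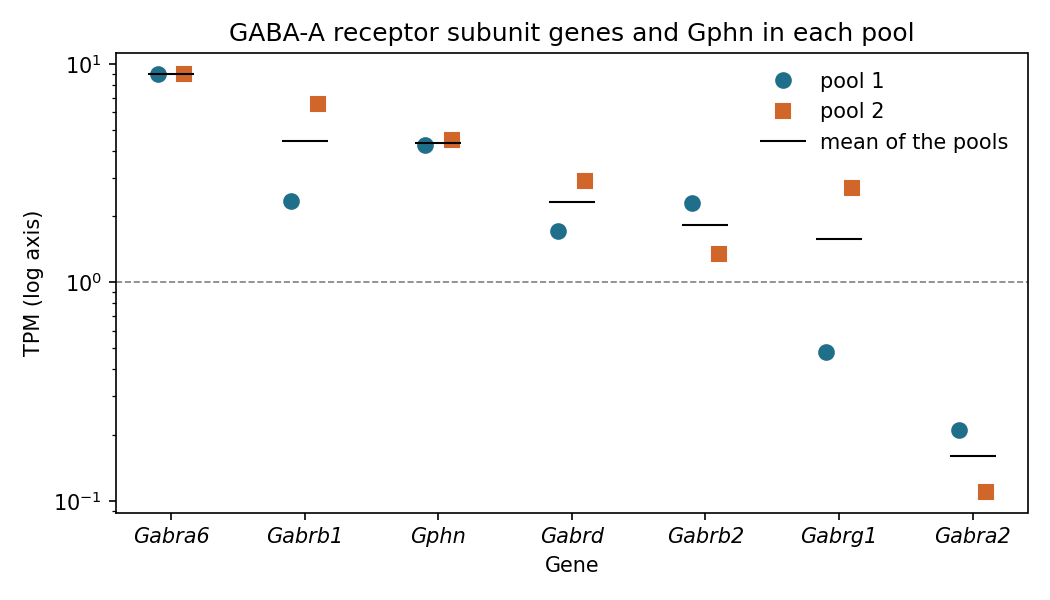
TPM (log axis) of each gene in pool 1 (circles) and pool 2 (squares), with the mean of the pools as a bar and a dashed line at a TPM of 1. The pools nearly coincide for Gabra6 and Gphn, and lie farthest apart for Gabrg1, at 0.48 and 2.69.

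The balance of the beta subunit genes differed between the pools. Gabrb1 (ENSMUSG00000029212.7, chromosome 5, 71658113 to 72149037) stood at a TPM of 2.36 (pool 1) and 6.53 (pool 2), from 286 and 683 counts. Gabrb2 (ENSMUSG00000007653.8, chromosome 11, 42419757 to 42629028) had a TPM of 2.31 and 1.34, from 173 and 100 counts. By TPM summed over all transcripts the genes were thus level in pool 1, with a ratio of 1.02, while Gabrb1 was 4.87-fold higher in pool 2. Gabrb1 was counted on a transcript of 3089 bases, where GENCODE M21 gives 13737 bases. What this does to the ratio and to the shares was not tested. The coding transcript Gabrb2-201 alone had a TPM of 0.83 in pool 1, below the 2.36 of Gabrb1. Of the TPM of the 3 beta genes, summed over all their transcripts, Gabrb1 held 38.5% in pool 1 and 58.6% in pool 2. Gabrb2 held 37.7% and 12%. Shares of read counts moved the same way, from 38.2% to 48.7% for Gabrb1 and from 23.1% to 7.13% for Gabrb2.

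A large part of the TPM of Gabrb2 was assigned to a short transcript that codes for no protein. Gabrb2-202, of 658 bases, held 59.9% of the gene's TPM in pool 1 and 51.8% in pool 2, on 31.4 and 13.6 counts, and the posterior mean shares were 56.5% and 46.3%. Gabrb2-201, the coding transcript of 3989 bases, had a TPM of 0.83 and 0.61 on 131.2 and 82.9 counts, which is 75.9% and 82.9% of the counts of Gabrb2. Short transcripts gain TPM steeply per read because the effective length in these tables is the length minus 99 bases. On this estimated split the coding transcript Gabrb2-201 was under a TPM of 1 in both pools. Whether the reads given to Gabrb2-202 came from coding RNA was not tested, so the coding level of Gabrb2 is not settled.

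Gabrg1 was the only gamma gene of the set and differed most between the pools. Gabrg1 (ENSMUSG00000001260.6, chromosome 5, 70751047 to 70842617) stood at a TPM of 0.48 (pool 1) and 2.69 (pool 2), from 92 and 439 counts. It held 0.774% of the summed TPM of the 3 gamma genes in pool 1 and 5.11% in pool 2. Gabrd (ENSMUSG00000029054.4, chromosome 4, 155384980 to 155398112), the delta subunit, had a TPM of 1.72 and 2.92, from 127 and 186 counts. Gabra6, with which Gabrd joins in granule cell receptors, was 5.23-fold above it in pool 1 and 3.07-fold in pool 2.

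**Figure D2:**
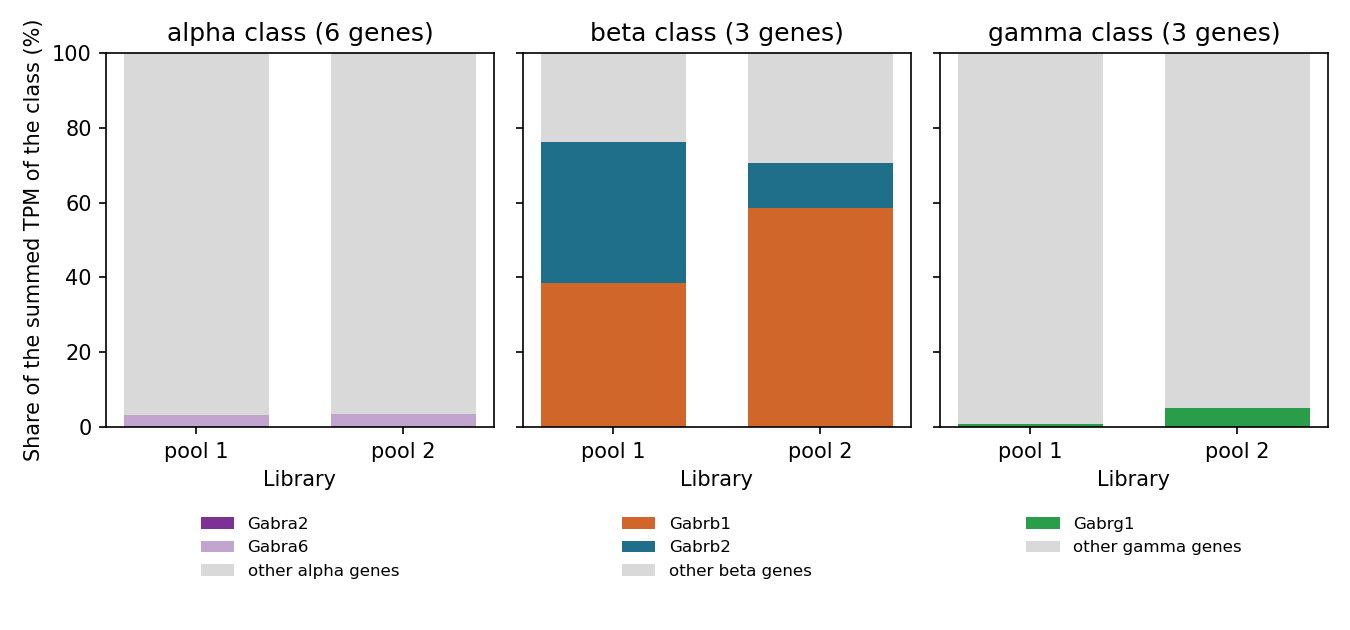
Share of the summed TPM of the alpha, beta and gamma classes (y axis, percent) held by each gene in pool 1 and pool 2, with all other genes of the class in grey. Gabra2, at 0.0737% and 0.0414%, is too thin to be seen, and the part of Gabrb2 shrinks from 37.7% to 12%.

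Gphn (ENSMUSG00000047454.7, chromosome 12, 78226379 to 78684772) was at nearly the same level in both pools. Its TPM was 4.23 in pool 1 and 4.47 in pool 2, from 549 and 499 counts, a mean of 4.35 ± 0.17 (SD, n = 2). Gabra6 was 2.13-fold and 2.00-fold above Gphn. By mean TPM the order was Gabra6, Gabrb1 (4.45 ± 2.95), Gphn, Gabrd (2.32 ± 0.849), Gabrb2 (1.83 ± 0.686), Gabrg1 (1.58 ± 1.56) and Gabra2 (0.16 ± 0.0707). Gabrb1 and Gphn exchanged their order between the pools, as did Gabrd with Gabrb2 and Gabrb2 with Gabrg1, so these neighbours were not separated. Gabra6 at the top and Gabra2 at the bottom kept their rank in both.

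The libraries differed in the counts of most of these genes, as they did for most genes tested. Each gene's counts were compared by a two-sided exact binomial test after TMM scaling, adjusted over all 14495 genes with at least 10 counts in total. That test compares these libraries, not conditions, and with 1 library on each side there is no replicate check. It called 6 of the 7 genes at an adjusted p under 0.05, against 65.8% of all genes tested and 63.9% of the 10103 genes whose total counts lay within the range of the 7, from 29 to 1598. Of these calls, 3 were higher in pool 2, against 33.3% of all genes, and 3 were higher in pool 1, against 32.5%. Only Gabrb1 and Gabrg1 were called with more than a 2-fold difference, against 29.4% of all genes and 30.2% of genes in the same count range. Beside a background this high, the number called is not read as particular to the 7 genes.

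Gabrg1 was 4.58-fold higher in pool 2 (log2 ratio 2.20, exact 95% interval 1.87 to 2.54, exact binomial adjusted p = 8.20e-51), and 6.09% of all tested genes had a ratio at least as high. Gabrb1 was 2.29-fold higher in pool 2 (log2 ratio 1.20, interval 1.00 to 1.40, exact binomial adjusted p = 1.43e-33), as were 13.3% of tested genes at that ratio or above. Both remained higher in pool 2, and called, under every scaling run, with log2 ratios down to 1.43 and 0.43 under spike-in totals. Gabrd was 1.41-fold higher in pool 2 (exact binomial adjusted p = 0.00595), but under spike-in totals its log2 ratio turned from 0.49 to -0.28 (exact binomial adjusted p = 0.123).

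Gabrb2 was 1.80-fold higher in pool 1 (log2 ratio of pool 2 over pool 1 -0.85, interval -1.22 to -0.49, exact binomial adjusted p = 6.13e-06), and it was called in that direction under every scaling run. Gabra6 had a log2 ratio of -0.30 (exact binomial adjusted p = 1.02e-04), which total counts reduced to -0.10 (exact binomial adjusted p = 0.209). Gphn had -0.20 (exact binomial adjusted p = 0.0435), a call that DESeq2 size factors (0.0501), total counts (1) and the lack of a filter on low counts (0.0527) each ended. On the TPM scale Gphn was slightly higher in pool 2, with a log2 ratio of TPM + 1 of 0.06, where the median of all detected genes was 0.24. Gabra2, with the fewest counts, had a log2 ratio of -1.21 (interval -2.53 to -0.01) and was not called (exact binomial adjusted p = 0.0595), except under spike-in totals, at -1.98 (exact binomial adjusted p = 5.96e-04). Scaling by total counts moved the median log2 ratio of all tested genes from -0.01 to 0.19, and scaling by spike-in totals moved it to -0.78. Calls among the 7 then split into 3 higher in pool 2 and 1 higher in pool 1 under total counts, and into 2 and 4 under spike-in totals. Of all tested genes, total counts called 66.4%, with 64.2% of those calls higher in pool 2, and spike-in totals called 75.9%, with 14.3% of those calls higher in pool 2.

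Neighbouring subunit genes did not all share the sign of their log2 ratio after TMM scaling. Gabrg1, Gabra2 and Gabrb1 lie near each other on chromosome 5, and Gabrg1 and Gabrb1 were higher in pool 2. The log2 ratio of Gabra2 was -1.21, but on 20 and 9 counts it was not called. Gabra6 and Gabrb2, neighbours on chromosome 11, both had negative log2 ratios, though total counts ended the call of Gabra6. The start of Gabrb1 overlaps a gene on the opposite strand, and reads of that overlap cannot be assigned if strand was not recorded.

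**Figure D3:**
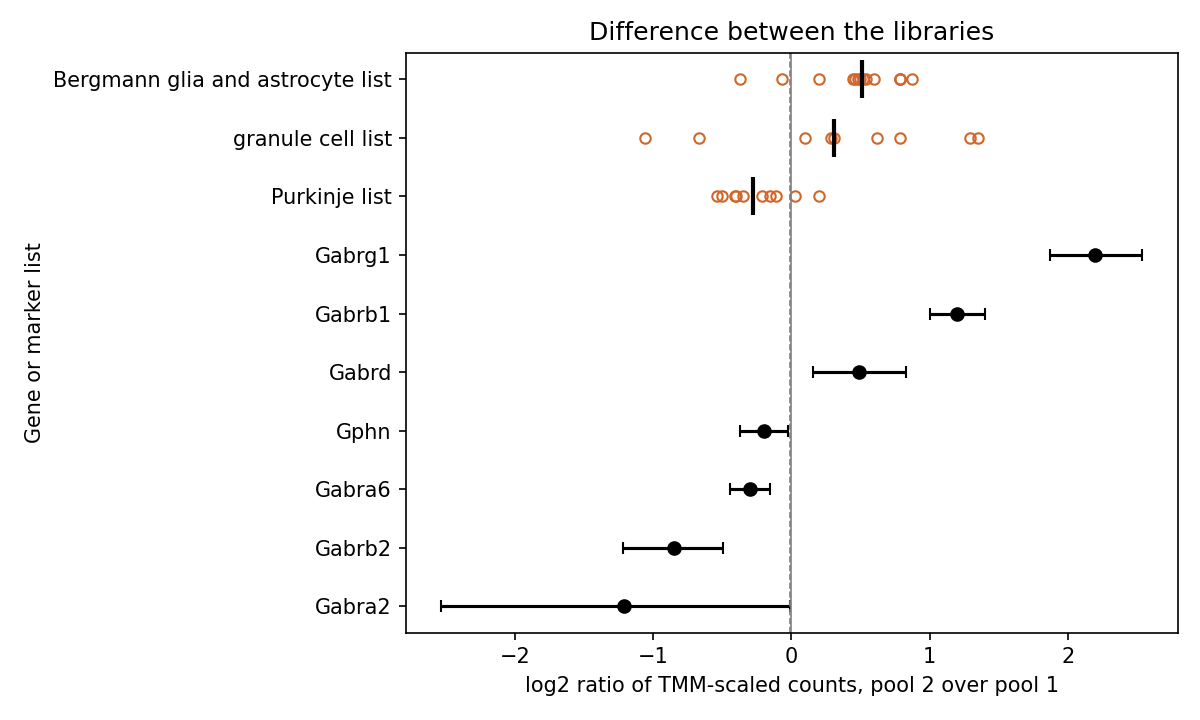
Log2 ratio of TMM-scaled counts, pool 2 over pool 1 (x axis), for the 7 genes with exact 95% intervals for counting error (filled points), and for each gene of 3 marker lists (open points, bar at the list's median). The solid line marks 0 and the dashed line the median of all tested genes, -0.01; Gabrg1 and Gabrb1 lie to the right of every Bergmann glia and astrocyte marker.

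Markers of Bergmann glia also differed between the pools. Of 14 Bergmann glia and astrocyte markers, 13 were detected in both pools and none was at 0, and their summed TPM was 3176 in pool 1 and 5403 in pool 2. By TMM-scaled counts 12 of the 14 were called higher in pool 2 and 1 lower (median log2 ratio 0.51, range -0.37 to 0.87), but under spike-in totals, which lowered all ratios, 2 were called higher and 10 lower (median -0.26). After TMM scaling the glutamate transporter gene Slc1a3 was 1.45-fold and the connexin gene Gja1 1.73-fold higher in pool 2; these and the other single markers were named after their values were seen. Gabrb1 and Gabrg1, at 2.29-fold and 4.58-fold, exceeded the highest marker of the list, at 1.83-fold. A scaling shifts all log2 ratios alike, so it cannot change this order. The part of glial RNA in the difference of Gabrb1 and Gabrg1 was not tested.

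Granule cell markers were present at low levels. The 9 granule cell markers other than these subunits had a summed TPM of 32.8 in pool 1 and 42.9 in pool 2, 6 were detected in both pools and none was at 0. The highest by mean TPM were Zic1 (9.13 and 11.8) and Neurod1 (7.39 and 10.94), both granule cell transcription factors, beside 8.99 and 8.96 for Gabra6. All other markers of the list lay below Gabra6 in both pools, down to a mean TPM of 0.355 for Fat2. By TMM-scaled counts 7 of the 9 markers were called higher in pool 2 and 2 lower (median log2 ratio 0.31), where Gabrd had 0.49 and Gabra6 -0.30, and under spike-in totals 1 was called higher and 5 lower (median -0.47). For the 10 Purkinje cell markers the median log2 ratio was -0.28 (range -0.54 to 0.20), with 1 called higher in pool 2 and 8 lower. Gphn, at -0.20, lay within this range and Gabrb2, at -0.85, lay below it. For these markers total counts gave a median of -0.09, with 4 called higher and 6 lower. Spike-in totals gave a median of -1.05, with 0 called higher and 10 lower. Markers of inhibitory interneurons had a summed TPM of 160 in pool 1 and 435 in pool 2, most of it from Npy (134.97 and 411.36), and Pax2 and Sst were at 0 in pool 1. Of these 9 markers, 4 were called higher in pool 2 and 2 lower after TMM scaling, and 3 and 4 under spike-in totals. By median log2 ratio of TMM-scaled counts, markers of 3 other cell types were higher in pool 1, the direction of Gabrb2, Gabra6 and Gphn. The median log2(TPM + 1) level, in contrast, was higher in pool 2 for microglia markers (0.62 in pool 1 and 0.68 in pool 2). It was also higher in pool 2 for endothelial and mural cell markers (0.37 and 0.74). Red blood cell genes had the widest gap of the lists, with a summed TPM of 2453 in pool 1 and 16.3 in pool 2 and all 4 tested genes called higher in pool 1 (median log2 ratio -7.30). Microglia markers had a summed TPM of 7.78 and 5.34, with 5 of 8 called higher in pool 1 and 2 in pool 2 (median -1.28). Endothelial and mural cell markers had 21.6 and 15.1, with 5 of 8 called higher in pool 1 and 1 in pool 2 (median -1.01). All 3 median log2 ratios stayed negative under each scaling run. Oligodendrocyte and precursor markers went the other way, with a summed TPM of 38 in pool 1 and 54.6 in pool 2. After TMM scaling 3 of the 7 tested were called higher in pool 2 and 1 higher in pool 1 (median 0.20). Under spike-in totals 0 and 5 were called. Of all tested genes, 33.3% were called higher in pool 2 and 32.5% higher in pool 1 after TMM scaling. The part of RNA from any of these cell types in the levels of the 7 genes was not tested.

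Gphn is spliced into many forms, and the tables held 2 of them, whose estimated shares differed between the pools. Gphn-202 carries a cassette exon of 108 bases at chr12:78493950-78494057 (plus strand, exon 8 of 23) that Gphn-201 lacks. Gphn-201 carries 99 bases in a pair of exons (exons 9 and 10 of 24, within chr12:78522898-78532698, plus strand) that Gphn-202 lacks. Both segments are coding sequence of the reference, between the G and E domains of gephyrin, and only reads that touch them can tell the forms apart.
Gphn-202: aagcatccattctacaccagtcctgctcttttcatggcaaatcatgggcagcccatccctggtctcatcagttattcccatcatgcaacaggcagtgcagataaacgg
Gphn-201: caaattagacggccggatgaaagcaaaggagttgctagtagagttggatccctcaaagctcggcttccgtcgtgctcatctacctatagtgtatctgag

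Gphn-202 held 52.8% of the TPM of Gphn in pool 1 and 0% in pool 2, and Gphn-201 held 47.2% and 100%. The estimated counts of Gphn-202 were 290.2 and 0. By the deposited posterior means, an alternative estimate, Gphn-201 held 52.3% and 86.4%. In pool 1 its posterior mean of 286.6 counts differed from that of Gphn-202 by less than either posterior SD, so their order was not settled there. The posterior mean counts of Gphn-202 lay closer together, with 262.4 counts (posterior SD 77.0) in pool 1 and 67.5 (posterior SD 64.4) in pool 2. The difference between the pools in the form with the 108-base exon was thus less clear than the point estimates. It rests on single libraries and was not tested. Forms with neither or both segments were not among the transcripts counted.

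Gabra6 showed a split of the same kind over a stretch of 30 bases. Gabra6-203 holds this stretch at the start of exon 4 of 9 (chr11:42317749-42317778, minus strand) and Gabra6-201 lacks it. The receptor subunit without it is known from rodent cerebellum and does not form working receptors.
Gabra6-203: gagtatacaatggatgttttcttccgccag

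In pool 1 Gabra6-203 held 100% of the TPM of Gabra6, and in pool 2 it held 49.5%, beside 48.9% for Gabra6-201. The estimated counts of Gabra6-201 were 0 in pool 1 and 358.3 in pool 2. The posterior means were 89.3 counts (posterior SD 76.5) and 288.3 (posterior SD 133.2), so the difference between the pools was less clear than the point estimates. The gene's summed level hardly depends on this split, since the transcripts have lengths of 2467 and 2436 bases.

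**Figure D4:**
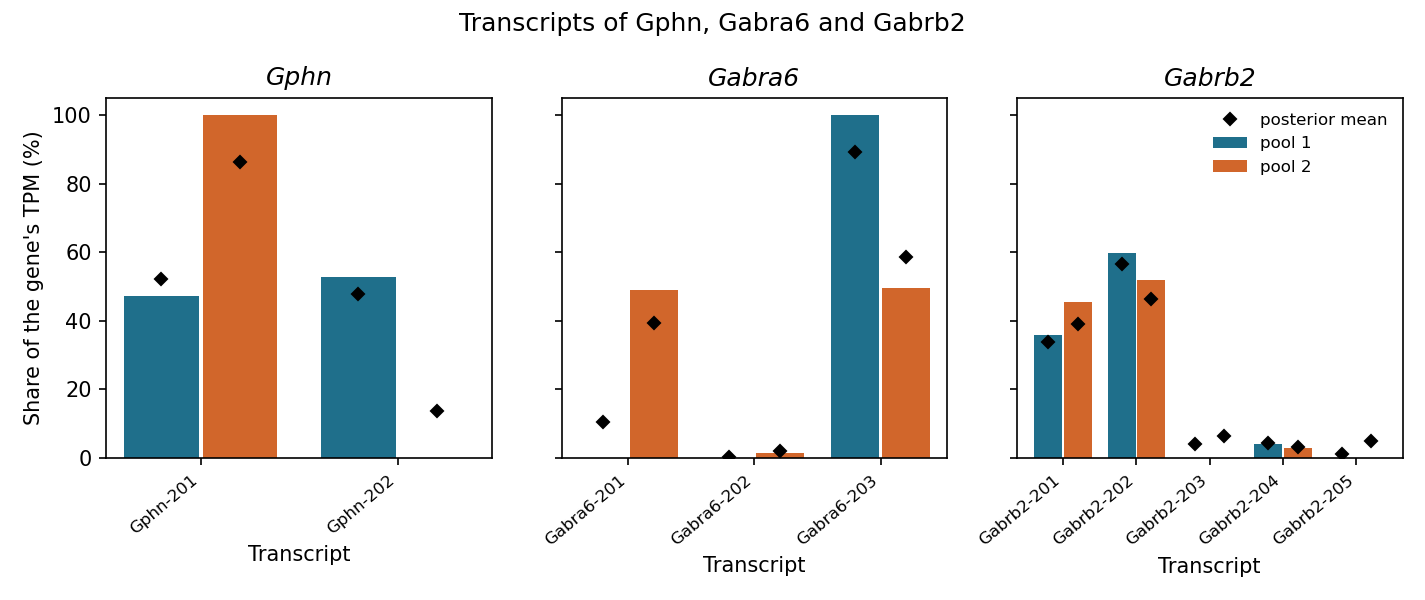
Share of each gene's TPM (y axis, percent) in each of its transcripts for Gphn, Gabra6 and Gabrb2, in pool 1 and pool 2 (bars), with the posterior mean estimate as a diamond. Gphn-202 stands at 52.8% in pool 1 and 0% in pool 2, and Gabra6-203 falls from 100% in pool 1 to 49.5% in pool 2.

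Gabrb1, Gabrg1 and Gabra2 were each counted on a single transcript. For Gabrb1-201 it was 3089 bases long, where the later annotation GENCODE M21 gives 13737 bases, and for Gabra2-201 it was 2392 bases, where M21 calls it a target of nonsense-mediated decay and gives a coding transcript of 5852 bases. Gabrg1-201 had 4771 bases in both. Whether reads outside the shorter models lowered the levels of Gabrb1 and Gabra2 was not tested.

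Genes of the inhibitory postsynapse and of receptor traffic were mostly detected, and their calls ran near the background. Of 30 such genes, 20 were detected in both pools, and after TMM scaling 11 were called higher in pool 2 and 11 higher in pool 1 (median log2 ratio 0.03, beside -0.01 over all tested genes), against 33.3% and 32.5% of all genes. Under spike-in totals 1 was called higher and 20 lower, where 75.9% of all genes were called and 14.3% of those calls were higher in pool 2. The highest was Gabarapl2 (TPM 687 ± 81.2, SD, n = 2), followed by Dynll1 (371 ± 12.1), a dynein light chain that binds gephyrin, and Gabarap (142 ± 50.2), which links the receptor to microtubules and belongs to the same family as Gabarapl2. Glrb, the glycine receptor subunit that gephyrin anchors, had 58.5 ± 9.79, above Gphn in both pools. Dynll2 had 40.5 ± 2.35, Gabarapl1 had 38.1 ± 3.44, the trafficking ATPase gene Nsf had 27.1 ± 7.17 and Ubqln1, which stabilises receptors, had 9.95 ± 5.53. Of these 8, Gabarap, Nsf and Ubqln1 were called higher in pool 2 and the other 5 higher in pool 1 after TMM scaling, but spike-in totals turned Gabarap (log2 ratio 0.54 to -0.23) and Nsf (0.29 to -0.49), and total counts ended the calls of Dynll1 (0.01) and Dynll2 (0.04).

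Gephyrin is also an enzyme of molybdenum cofactor synthesis, and few of the other listed genes that serve to make or use the cofactor were detected. Only 2 of 8 such genes were detected in both pools, and after TMM scaling 2 were called in each direction, against the same 33.3% and 32.5% of all genes. Spike-in totals called 0 higher in pool 2 and 4 lower, beside the same 75.9% called over all genes. Mocs2, which makes the precursor that gephyrin uses, had a TPM of 20.1 ± 1.51 (SD, n = 2), the sulfur donor enzyme gene Nfs1 had 7.29 ± 4.17 and Suox, a sulfite oxidase that needs the cofactor, had 1.41 ± 0.615.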

How the data were processed

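RNA of 2 Purkinje cell pools was sequenced from SMARTer Ultra Low cDNA, per the labels' protocols. The authors' tables were made per library on mm10 with GENCODE M4, per the text deposited with each sample; the sources used here name no aligner or quantifier. The deposited expected counts are estimated reads, the deposited TPM and FPKM are scaled for length and depth, and the deposited isoform tables list each transcript's percent of its gene and a posterior SD. Rows with numeric identifiers, which held 0.000412% and 0.000194% of counts, and spike-ins (0.211% and 0.411%) stayed out of library sizes. Symbols and sequences were taken from GENCODE M21 (GRCm38), and 42462 of 43346 genes had a symbol.

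Expected counts were rounded and scaled by TMM (edgeR 4.0.16). Library size normalization by DESeq2 1.42.0 size factors, total counts or spike-in totals, posterior mean counts, FPKM and no count filter were alternatives. Each gene with at least 10 counts was compared by exact binomial test (R 4.3.3), adjusted by Benjamini-Hochberg over all genes, with a script tested on simulated data. Intervals are exact (95%) and cover counting error only, since no molecular identifiers are named. Class shares divide a gene's TPM by the sum over its class. Members, lists and tests were chosen with earlier results of these data known. The named genes were the 7 members, the 8 highest postsynaptic and trafficking genes and the 3 highest cofactor genes; single cell type markers were named after their values were seen. Reads of this hybrid were counted on the C57BL/6 reference, and a bias from that was not tested. Some subunit genes are not reported here singly. With 2 pools no likeness of pattern between genes was computed.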

Additional observations from a re-analysis of the deposited data

How the results depend on the processing

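Over 134 alternative values, 117 kept their direction and their side of the threshold or moved by less than the spread. With 2 pools, a value from a single pool always lies within the SD of the mean. The values with a pool left out, all among the 117, therefore say nothing about stability. Shares of alpha counts in place of TPM gave 0.0300% for Gabra2 and 1.71% for Gabra6, whose posterior mean TPM was 8.90. The coding Gabrb2-201 held 79.4% of counts. A pseudocount of 0.1 put the granule cell median level at 1.68. For log2 ratios, total counts ended the calls of Gabra6 (-0.10) and Gphn (-0.000866), DESeq2 size factors (-0.19) and no filter (-0.20) ended that of Gphn, and spike-in totals called Gabra2 (-1.98) and turned Gabrd (-0.28). On the log2(TPM + 1) scale Gabra6 had -0.00434, Gabrg1 1.32 and Gphn 0.06, and with a pseudocount of 0.1 Gabra6 had -0.00477, Gabrb1 1.43 and Gphn 0.08. The cause was not tested. Exact binomial adjusted p for Gphn ran from 2.00e-26 to 1. The number of genes called stayed within 1.5 times of 6. No paired analysis was possible because there is 1 group. Counts of 9 to 20 limit Gabra2, and reads over 30 to 108 bases limit the transcript shares.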
